A study of Mus musculus with 12 samples.

Results

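The genes analysed here encode the subunits of the mitochondrial respiratory chain and ATP synthase, in lymph nodes of mice. They were chosen by symbol: all genes whose names begin with Ndufa, Ndufb, Ndufc, Ndufs or Ndufv (not Ndufaf), Uqcr, Cox4 to Cox8 or Atp5, the genes Sdha, Sdhb, Sdhc and Sdhd, and the mt-Nd, mt-Co, mt-Atp and mt-Cytb genes. This gave 112 of 55487 genes, 99 nuclear and 13 mitochondrially encoded. Structural subunits made up 88 of them (75 nuclear and 13 mitochondrial), 8 were isoforms known for restricted tissues, 12 were copies or pseudogenes and 4 were other related genes, among them Cox7a2l and Atp5s. Enough counts for testing were found for 96 genes, 84 nuclear and 12 mitochondrial. The other 16 were mt-Atp8 (21 counts over all libraries), Cox7a1 (39), Cox8b (18), Cox7b2, Cox8c and a second Atp5o identifier (0 each), and 10 pseudogene copies.

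Bulk RNA-seq counts came from 12 lymph node libraries in 4 groups of 3. T mice carried B16F10 melanoma cells, a mouse tumour line, inoculated into the tongue, and NT mice did not; in NDE mice the pain-sensing nerves that supply the tumour-draining node had been inhibited, and in NC mice they had not. The groups were thus T NDE (tumour, nerves inhibited), NT NDE (no tumour, nerves inhibited), T NC (tumour, nerves intact) and NT NC (neither). The labels give the replicates as biologically independent and state neither the strain, age or number of mice per library nor how the nerves were inhibited. B16F10 is 1 cell line, so the tumour groups stand for that line only.

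Respiration passes electrons from NADH through complex I, or from succinate through complex II, to ubiquinone, then through complex III and cytochrome c to complex IV, which reduces oxygen. Complexes I, III and IV pump protons, and complex V, the ATP synthase, makes ATP as protons flow back. The mitochondrial genome encodes core subunits of complexes I, III, IV and V, and all other subunits, including all of complex II, are encoded in the nucleus and imported, so each mixed complex draws on both genomes. Resting lymphocytes are known to rely largely on oxidative phosphorylation, and mitochondrial content grows when they are activated. In bulk tissue, fewer cells of a type and less RNA per cell cannot be told apart.

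The values of the 13 mitochondrial genes have to be read beside nuclear copies of their sequence, which are shown first. On mm10, a stretch of nuclear chromosome 1 (chr1:24611535-24616197, minus strand) holds genes that GENCODE annotates separately and that copy mitochondrial genes from the end of mt-Co1 to the middle of mt-Nd4. Over their aligned lengths Gm28661 did not differ from mt-Co2 (0 differences in 681 bases), nor Gm10925 from mt-Atp6 (0 in 678), Gm28437 from mt-Co3 (0 in 783), Gm10222 from mt-Nd4l (0 in 294) or Gm28439 from the first 876 of the 1378 bases of mt-Nd4. Gm28438 had 1 difference from mt-Nd3 in 345 bases and Gm29216 had 6 differences from the last 492 bases of mt-Co1. The mitochondrial sequence of mt-Nd4l (chrM:9877-10170, plus strand, mm10, coding sequence) is printed because the same 294 letters stand in Gm10222 at chr1:24612407-24612700 on the minus strand, so that a read from it has at least 2 exact places; no capitals are used since no base differs.
mt-Nd4l: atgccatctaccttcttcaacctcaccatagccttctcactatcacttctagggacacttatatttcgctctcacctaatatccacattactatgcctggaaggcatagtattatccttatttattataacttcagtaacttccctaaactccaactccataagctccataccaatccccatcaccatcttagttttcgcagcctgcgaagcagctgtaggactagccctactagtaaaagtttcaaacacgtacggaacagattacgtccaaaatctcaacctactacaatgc
The start of mt-Nd3 (chrM:9459-9501, plus strand, mm10) and the matching stretch of Gm28438 (chr1:24613077-24613119, minus strand) hold the only base at which that pair differed, marked by a capital.
mt-Nd3: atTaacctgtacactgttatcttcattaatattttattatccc
Gm28438: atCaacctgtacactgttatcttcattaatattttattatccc

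Of the words of 50 bases in each transcript, 98.0% or more also occurred in another annotated gene for the 5 genes mt-Co2 (100%), mt-Co3 (99.9%), mt-Atp6 (99.5%), mt-Nd4l (98.8%) and mt-Nd3 (98.0%). These 5 genes averaged 26.2, 15.3, 8.96, 1.80 and 2.69 CPM (counts scaled to the TMM-adjusted library total) per kb over the 12 libraries, in that order. The share was 62.2% for mt-Nd4 and 51.1% for mt-Co1, 8.19% for mt-Nd2, 4.11% for mt-Nd5 and 0% for mt-Nd1, mt-Cytb, mt-Nd6 and mt-Atp8. The level per length was 6637 CPM per kb for mt-Co1, the catalytic core of complex IV, 2658 for mt-Cytb of complex III, and 2118, 1159, 719 and 1259 for mt-Nd1, mt-Nd2, mt-Nd4 and mt-Nd5 of complex I. The level of mt-Co1 was thus higher by far than those of mt-Co2 and mt-Co3, with which it forms the core of complex IV.

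Low levels were also found for mt-Nd6, the single subunit gene on the other strand, with 43.0 CPM per kb, and for mt-Atp8, with 0.440 CPM per kb. The share of words was counted in annotated genes only, so 0% for mt-Atp8 does not say whether unannotated DNA between the chromosome 1 copies holds its sequence. The nuclear copies themselves were listed with 186 to 395 counts per library for Gm10925, 134 to 244 for Gm28661 and 113 to 255 for Gm28437. The 6 well-covered genes mt-Co1, mt-Cytb, mt-Nd5, mt-Nd1, mt-Nd2 and mt-Nd4 hold nearly all counts of the group. The 6 others that were tested describe what was assigned to them under counting rules not given in the sources used here. Counts of mt-Co1 and mt-Nd4, with 51.1% and 62.2% of their words shared, may depend on those rules too. Gm13340 on chromosome 2 holds 27.5% of the words of mt-Co1 and differs from it at 37 of 1545 bases. Strand use is likewise not given, so reads of mt-Nd6 and reads antisense to it cannot be told apart.

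**Figure D1:**
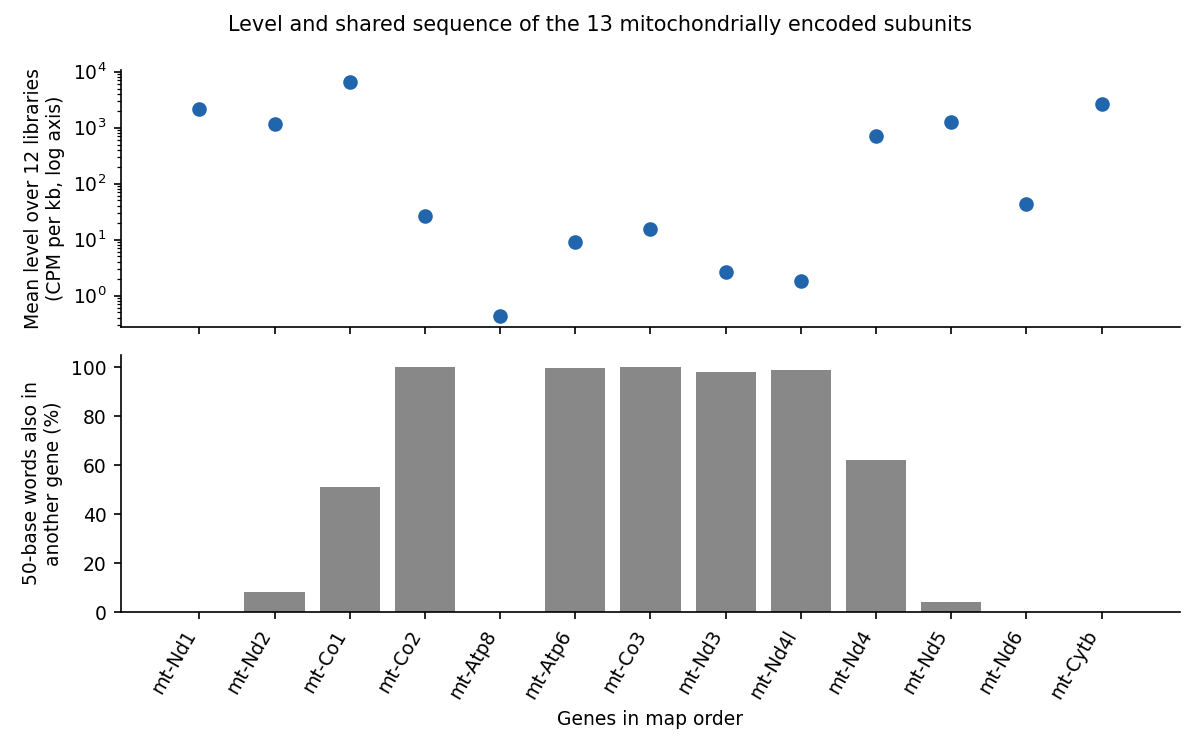
Upper panel: mean level of each of the 13 mitochondrially encoded genes over 12 libraries, in CPM per kb on a log axis, in map order. Lower panel: percentage of 50-base words of the transcript found in another annotated gene. The genes from mt-Co2 to mt-Nd4l lie at 26.2 CPM per kb or below, and mt-Co1, mt-Cytb, mt-Nd1, mt-Nd2, mt-Nd4 and mt-Nd5 at 719 or above.

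The nuclear genes spanned a narrower range. Among the 84 tested, the median level was 27.2 CPM per kb, from 1.25 for Ndufb2 to 182 for Atp5a1. Length here joins all annotated exons of a gene and can exceed that of its main transcript. Atp5l counts as 6443 bases, though its longest coding transcript has 544, so the order of genes depends in part on annotation. The highest levels per length after Atp5a1, the alpha subunit of the ATP synthase head, were those of the complex IV subunit Cox8a (165 CPM per kb), the supercomplex factor Cox7a2l (157), the catalytic beta subunit Atp5b (151) and the complex IV subunit Cox4i1 (132). Among the succinate dehydrogenase genes, the flavoprotein Sdha had 62.3 CPM per kb and the iron-sulphur protein Sdhb 31.6, against 16.8 for Sdhc and 59.6 for Sdhd, the membrane anchors. Isoforms known from other tissues were low: Cox4i2 (lung) had 7.59 CPM per kb, Cox6a2 (heart and skeletal muscle) 3.27, Ndufa4l2 (induced by hypoxia) 1.49 and Cox6b2 (testis) 1.27. The muscle and brown fat forms Cox7a1 and Cox8b had 39 and 18 counts in all. Several nuclear members share sequence with other annotated genes, among them Atp5l (68.5% of its 50-base words), Atp5h (47.9%), Uqcrb (43.2%) and Ndufs3 (35.5%), so their counts are uncertain, as are those of Atp5o, which overlaps the second Atp5o gene.

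Promoters of the nuclear subunits were searched for the motifs of 3 factors known to drive respiratory genes. Windows from 250 bases before to 50 bases after the RefSeq start (GRCm38.p6) were found for 63 of the 75 nuclear structural subunits. A gene with several windows counted as matched if any of them held the letters. The NRF1 motif, read as GCGCA, any base and GCGC, stood on either strand in 17 genes (27.0%), against 7.17% of all 17491 protein-coding genes with a window. The letters AAGATGGC, bound by YY1, stood in 10 (15.9%, against 3.57%) and CCGGAAGT, bound by ETS factors such as GABP, in 5 (7.94%, against 5.69%). At least 1 of the 3 was present in 30 genes (47.6%), against 15.1%. These are letter matches, and the motifs can overlap. The 4 stretches below are from genes whose values are given here, one each for complexes I, II, IV and V, with each NRF1 match on either strand in capitals. They lie at chr5:108434400-108434494, chr5:115349066-115349165, chr13:73328483-73328543 and chr9:50603874-50603973 in the order printed, all on the minus strand.
Atp5k: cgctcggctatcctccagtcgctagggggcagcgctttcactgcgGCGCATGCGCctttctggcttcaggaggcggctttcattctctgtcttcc
Cox6a1: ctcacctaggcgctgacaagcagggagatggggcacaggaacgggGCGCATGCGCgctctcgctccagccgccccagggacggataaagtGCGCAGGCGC
Ndufs6: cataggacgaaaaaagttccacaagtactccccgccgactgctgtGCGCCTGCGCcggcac
Sdhd: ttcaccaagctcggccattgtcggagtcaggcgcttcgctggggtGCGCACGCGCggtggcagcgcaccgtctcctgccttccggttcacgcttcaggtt

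The factors themselves had similar levels in all groups. Nrf1 averaged 57.5 CPM in T NDE, 54.7 in NT NDE, 58.9 in T NC and 55.5 in NT NC. Gabpa, the DNA-binding subunit of GABP, averaged 95.6, 92.4, 93.6 and 94.9 CPM in the same groups, and Yy1 182, 174, 179 and 173 CPM. In edgeR's quasi-likelihood test with Benjamini-Hochberg adjustment, 0 of the 10 regulators tested passed in any of the 5 contrasts. At an unadjusted p under 0.05 there was 1 in NT NDE against NT NC, Tfam (-0.14, lower, where 4.71% of all genes were), and 1 in the interaction, Ppargc1a (1.62, higher, where 3.16% of all genes were). With 10 genes tested, 1 gene is near that background.

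Library totals ran from 16862953 to 24467873 counts. Of these, the nuclear members took 0.548% to 0.659% and the mitochondrial members 1.69% to 2.34%, depending on the library. The summed level of 8 salivary gland markers reached 39299 CPM in T NDE replicate 3. It was 27963 and 1448 CPM in replicates 3 and 2 of NT NC, and 11.5 to 58.1 CPM in the other 9 libraries. T NDE replicate 3 also had the highest erythroid and adipocyte marker sums (229 and 51.8 CPM). Skeletal muscle markers summed to 6.07 to 9.57 CPM in all libraries, B cell markers to 2154 to 3082 CPM and T cell markers to 539 to 734 CPM, the defining lymphocytes of a lymph node. Results are also given without these 3 salivary libraries for many values that moved by over 1.5 times. A value printed without such a figure is not thereby shown to be stable.

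In tumour-bearing mice with intact nerves, nuclear respiratory genes were slightly higher and mitochondrially encoded genes slightly lower than in tumour-free mice. Of the 84 nuclear genes tested, 80 had a positive log2 fold change in T NC against NT NC, with a median of 0.15, while the median of all genes tested was -0.01 and 48.0% of them were positive. Of the 12 mitochondrial genes, 2 were positive, and the median was -0.13. The shifts are small, and 0 of the 96 members passed the threshold of 0.05 in edgeR's quasi-likelihood test with Benjamini-Hochberg adjustment (background 0.0%, smallest adjusted p = 0.465). DESeq2 (background 0.269%) and limma-voom also called 0 members. Marker sums of other cells moved with the groups: neutrophil markers summed to 154 to 284 CPM in T NC against 49.7 to 109 CPM in NT NC, stromal markers to 281 to 327 CPM against 221 to 237 CPM, and macrophage markers to 464 to 523 CPM against 595 to 668 CPM. By single genes, Siglec1 (149, 160 and 180 CPM against 237, 256 and 239 CPM) and Cxcl13 (236, 226 and 228 CPM against 158, 175 and 189 CPM) did not overlap. Pdpn was also higher without overlap, and the other genes of the macrophage and stromal lists overlapped. The part of these markers in the respiratory values was not tested.

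There were 38 nuclear members with an unadjusted p under 0.05 that were higher and 0 that were lower, where the background over all genes was 4.58% higher and 3.23% lower. Values of T NC and NT NC did not overlap for 38 higher nuclear members (background 7.78%) and for 1 lower (7.23%). By complex, the genes at an unadjusted p under 0.05 were 13 of 36 for complex I, 0 of 4 for complex II, 5 of 8 for complex III, 10 of 11 for complex IV and 8 of 16 for complex V among the structural subunits, all of them higher. The medians were 0.14, 0.07, 0.19, 0.19 and 0.15 in that order. The count of 38 rested in part on single libraries: leaving out T NC replicate 1 gave 17, leaving out NT NC replicate 2 gave 18, leaving out NT NC replicate 1 gave 25, and leaving out all 3 salivary libraries gave 21, where 81 of 86 were positive with a median of 0.17.

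The smallest p values belonged to 3 subunits of ATP synthase. Atp5e, the epsilon subunit of its central stalk, had 78.5, 78.1 and 79.3 CPM in T NC, against 65.0, 60.3 and 69.8 CPM in NT NC. Every T NC library exceeded every NT NC library, and the log2 fold change was 0.27 (SE 0.07, edgeR adjusted p = 0.465). Atp5d, the delta subunit of the same stalk, had 132, 125 and 135 CPM against 116, 104 and 116 CPM in NT NC, again without overlap (0.22, SE 0.06). The small peripheral subunit Atp5mpl had 43.9, 36.4 and 39.6 CPM against 30.9, 30.2 and 35.2 CPM (0.32, SE 0.09). Atp5k, a membrane subunit of the same enzyme, had 18.6, 17.6 and 16.6 CPM against 13.3, 13.1 and 13.6 CPM, a log2 fold change of 0.40 (SE 0.15, edgeR adjusted p = 0.554).

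In complexes I and IV the same pattern held for single genes. Ndufs6, an accessory subunit of complex I that binds zinc, had 20.5, 20.4 and 19.5 CPM in T NC against 15.8, 15.05 and 17.7 CPM in NT NC. Its log2 fold change was 0.32 with an SE of 0.09 (edgeR adjusted p = 0.491), though it shares sequence with the low copy Ndufs6b. Ndufb8, an accessory subunit of its membrane arm, had 28.4, 23.8 and 24.5 CPM against 19.6, 19.6 and 23.0 CPM (0.30, SE 0.11). Cox6a1, the common isoform of a regulatory subunit of complex IV, had 106, 92.6 and 92.1 CPM against 80.3, 73.8 and 89.4 CPM (0.25, SE 0.08). In each of the 3 genes the groups did not overlap. The muscle isoform Cox6a2 had 2.13, 3.37 and 2.84 CPM in T NC against 2.03, 1.67 and 2.17 CPM in NT NC, which overlapped (0.51, SE 0.23, edgeR adjusted p = 0.633). Cox6b2, the testis isoform, had 1.55, 1.34 and 1.48 CPM against 1.29, 0.959 and 1.01 CPM (0.43, SE 0.28; 0.18 without the 3 salivary libraries).

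Genes of succinate dehydrogenase, which has no mitochondrially encoded subunit, had the smallest median. Sdha had 273, 248 and 249 CPM in T NC, against 259.7, 251 and 251 CPM in NT NC, and the log2 fold changes of the 4 genes lay between 0.02 and 0.12. The lowest nuclear fold changes were those of the pseudogene Ndufab1-ps (-0.36), the coupling factor gene Atp5s (-0.15) and the complex I subunit Ndufb2 (-0.06), none of them past the threshold. The sign of Ndufb2 turned when NT NC replicate 2 (0.082) or T NC replicate 2 (0.025) was left out.

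Mitochondrially encoded genes were lower without overlap in 5 of 12 cases (background 7.23%), and 2 had an unadjusted p under 0.05. mt-Nd5, a proton-pumping subunit of complex I, had 2007, 2042 and 2124 CPM in T NC, against 2416, 2617 and 2414 CPM in NT NC. Its log2 fold change was -0.27 (SE 0.10, edgeR adjusted p = 0.584). mt-Co1 had 10166, 9289.8 and 9632 CPM in T NC, against 10247, 11211 and 10622 CPM in NT NC (-0.14, SE 0.08). mt-Atp6, whose counts may be shared with its copy, had 5.65, 5.17 and 5.57 CPM against 6.08, 8.96 and 8.03 CPM (-0.50, SE 0.16, edgeR adjusted p = 0.494). Without the 3 salivary libraries, which leaves NT NC replicate 1 alone on that side and assumes that it varies like the other groups, mt-Nd5 was at -0.22, mt-Co1 at -0.07 and mt-Atp6 at -0.14, and 0 mitochondrial genes had an unadjusted p under 0.05. That count was also 0 without NT NC replicate 2. The mitochondrial median was -0.08 without the 3 salivary libraries and -0.24 without T NC replicate 1.

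**Figure D2:**
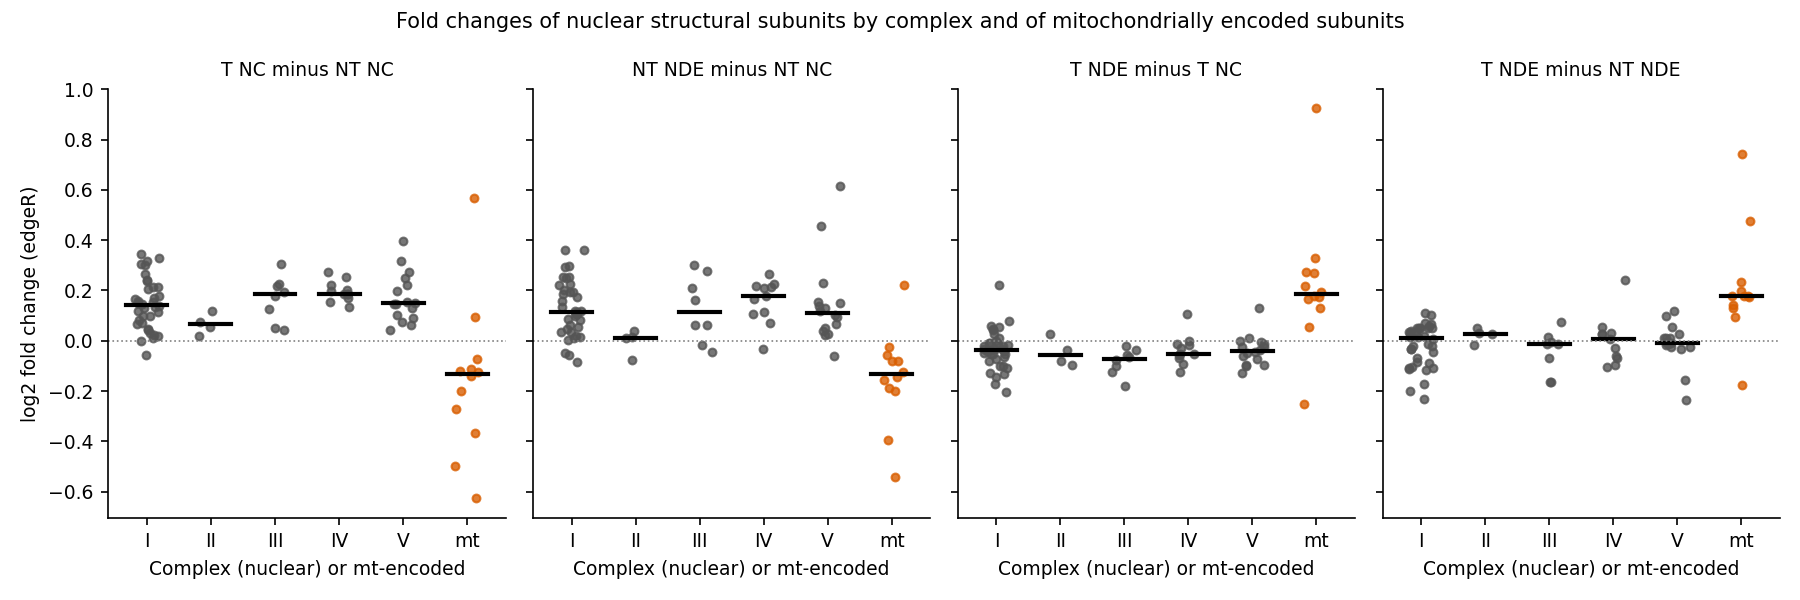
Fitted log2 fold change of each tested nuclear structural subunit, by complex, and of each tested mitochondrially encoded gene (mt), in 4 comparisons; black bars are medians. With T NC or NT NDE over NT NC most nuclear points lie above 0 and most mt points below, and with T NDE over T NC the mt median is 0.19.

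Without a tumour, nerve inhibition went with slightly higher nuclear and slightly lower mitochondrial values. In NT NDE against NT NC, 72 of 84 nuclear genes were positive (median 0.11; 51.1% of all genes were positive, median 0.00), and 1 of 12 mitochondrial genes (median -0.13). The mitochondrial median was -0.07 without NT NC replicate 2 or without NT NDE replicate 2, with 4 of 12 genes positive in each case. Leaving out the 3 salivary libraries also gave -0.07, and the 1 mitochondrial gene that was lower at an unadjusted p under 0.05 was then 0 genes. Neutrophil markers summed to 121 to 153 CPM in NT NDE against 49.7 to 109 CPM in NT NC. Of these, S100a8 and S100a9 were higher without overlap, while Ly6g, Retnlg and Camp overlapped. Ly6g had 0.571, 0.590 and 0.473 CPM in NT NDE against 0.956, 0.583 and 0.253 CPM in NT NC. Stromal markers summed to 334 to 352 CPM against 221 to 237 CPM. Most of the stromal sum was Cxcl13, with 295, 277 and 265 CPM against 158, 175 and 189 CPM. Pdpn was also higher without overlap, while Ccl19, Ccl21a and Pdgfrb overlapped (Pdgfrb 45.7, 46.6 and 55.2 CPM against 51.0, 46.1 and 42.5 CPM). The part of these markers was not tested. This comparison shares its NT NC libraries with the one above, so the 2 sets of values are not independent. edgeR called 0 members (background 0.0%, smallest adjusted p = 0.207). DESeq2 called 1 member (background 1.16%). This was Ndufb1-ps, annotated as a non-coding RNA with the name of a complex I subunit, with a log2 fold change of 0.32 (DESeq2 adjusted p = 0.0496; 0.171 to 0.532 in the other fits).

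Values of Ndufb1-ps were 23.6, 21.9 and 23.4 CPM in NT NDE against 17.9, 18.1 and 18.8 CPM in NT NC, so that the groups were well apart. At an unadjusted p under 0.05, 30 nuclear genes were higher (background 5.67%) and 0 lower (4.71%): 12 of 36 in complex I, 0 of 4 in complex II, 3 of 8 in complex III, 7 of 11 in complex IV and 6 of 16 in complex V among the structural subunits. The groups did not overlap for 26 nuclear genes that were higher (background 9.71%) and 1 that was lower (9.18%). The count of 30 became 13 when NT NDE replicate 1 or NT NC replicate 2 was left out, 20 when NT NC replicate 1 was, and 15 when all 3 salivary libraries were.

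Cox6a1 had 101, 91.8 and 99.6 CPM in NT NDE against 80.3, 73.8 and 89.4 CPM in NT NC, a log2 fold change of 0.27 with an SE of 0.08 (edgeR adjusted p = 0.271). Ndufa13, a membrane-arm subunit of complex I also known as a cell death regulator, had 51.0, 47.5 and 45.5 CPM against 42.5, 37.3 and 41.1 CPM (0.25, SE 0.08). Ndufb8 had 31.0, 23.8 and 25.2 CPM against 19.6, 19.6 and 23.0 CPM (0.36, SE 0.11). The NT NDE libraries exceeded all NT NC libraries in the 3 genes. Atp5o, the subunit that joins the head of ATP synthase to its outer stalk, had 16.6, 10.6 and 11.2 CPM against 7.31, 7.79 and 10 CPM (0.61, SE 0.19), with counts that may be shared with the overlapping gene. Leaving out NT NDE replicate 1 gave 0.39 for Atp5o and 0.24 for Ndufb8. Ndufs3, a core subunit of complex I, was among the lowest (-0.08, SE 0.07, and -0.04 without the 3 salivary libraries). It had 53.6, 47.5 and 49.3 CPM in NT NDE against 51.7, 53.9 and 53.8 CPM in NT NC.

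With the nerves inhibited, tumour-bearing mice had slightly more mitochondrially encoded RNA than tumour-bearing mice with intact nerves. In T NDE against T NC, 11 of 12 mitochondrial genes were positive (median 0.19) and 14 of 84 nuclear genes (median -0.05), with 52.7% of all genes positive and a median of 0.01. T NC libraries enter this comparison and the first. Neutrophil markers summed to 95.5 to 151 CPM in T NDE against 154 to 284 CPM in T NC, and their part was not tested. Of these markers S100a8 overlapped, and the other genes of the list were lower without overlap. edgeR called 0 members (background 0.0%, smallest adjusted p = 0.705). At an unadjusted p under 0.05, 3 mitochondrial genes were higher (background 2.75%) and 0 lower, and among nuclear genes 1 was higher and 1 lower (background 3.07%). Groups did not overlap for 3 mitochondrial genes that were higher (background 4.55%), and for 2 nuclear genes that were higher and 4 that were lower (4.6%). Without T NDE replicate 3, the most salivary library, the mitochondrial median was 0.10, with 1 gene at an unadjusted p under 0.05. The nuclear median was -0.01, with 39 genes positive, without T NC replicate 1, and 25 were positive without T NDE replicate 3.

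mt-Nd6, the complex I subunit encoded on the opposite strand, stood highest. It had 38.2, 30.0 and 27.3 CPM in T NDE, against 13.5, 16.02 and 21.0 CPM in T NC. Every T NDE library was above every T NC library. The log2 fold change was 0.92 (SE 0.25), with an edgeR adjusted p of 0.705, while DESeq2 called it (adjusted p = 0.0252; background 0.255%). In the fits other than DESeq2 its adjusted p lay between 0.515 and 0.999, and leaving out single libraries gave 0.77 to 1.10.

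Of the well-covered genes, mt-Nd4 had 979, 1054 and 1289 CPM in T NDE against 875, 913 and 961 CPM in T NC, without overlap (0.27, SE 0.10, edgeR adjusted p = 0.803). mt-Nd5 had 2118, 2342 and 2979 CPM against 2007, 2042 and 2124 CPM (0.27, SE 0.10), and mt-Co1 9886, 10794 and 12154 CPM against 10166, 9289.8 and 9632 CPM (0.17, SE 0.08). In mt-Nd5 and mt-Co1, T NDE replicate 1 lay within the T NC range. The highest value of all 3 genes was that of T NDE replicate 3, and without T NDE replicate 3 mt-Nd4 was at 0.15, mt-Nd5 at 0.11 and mt-Co1 at 0.09. Among nuclear genes, Ndufs6 had 16.3, 17.9 and 18.2 CPM in T NDE against 20.5, 20.4 and 19.5 CPM in T NC (-0.20, SE 0.09, edgeR adjusted p = 0.851). The complex III subunit Uqcr10 had 33.4, 33.8 and 31.7 CPM against 39.8, 36.7 and 35.5 CPM (-0.18, SE 0.09). The T NDE libraries of both genes lay below all T NC libraries.

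**Figure D3:**
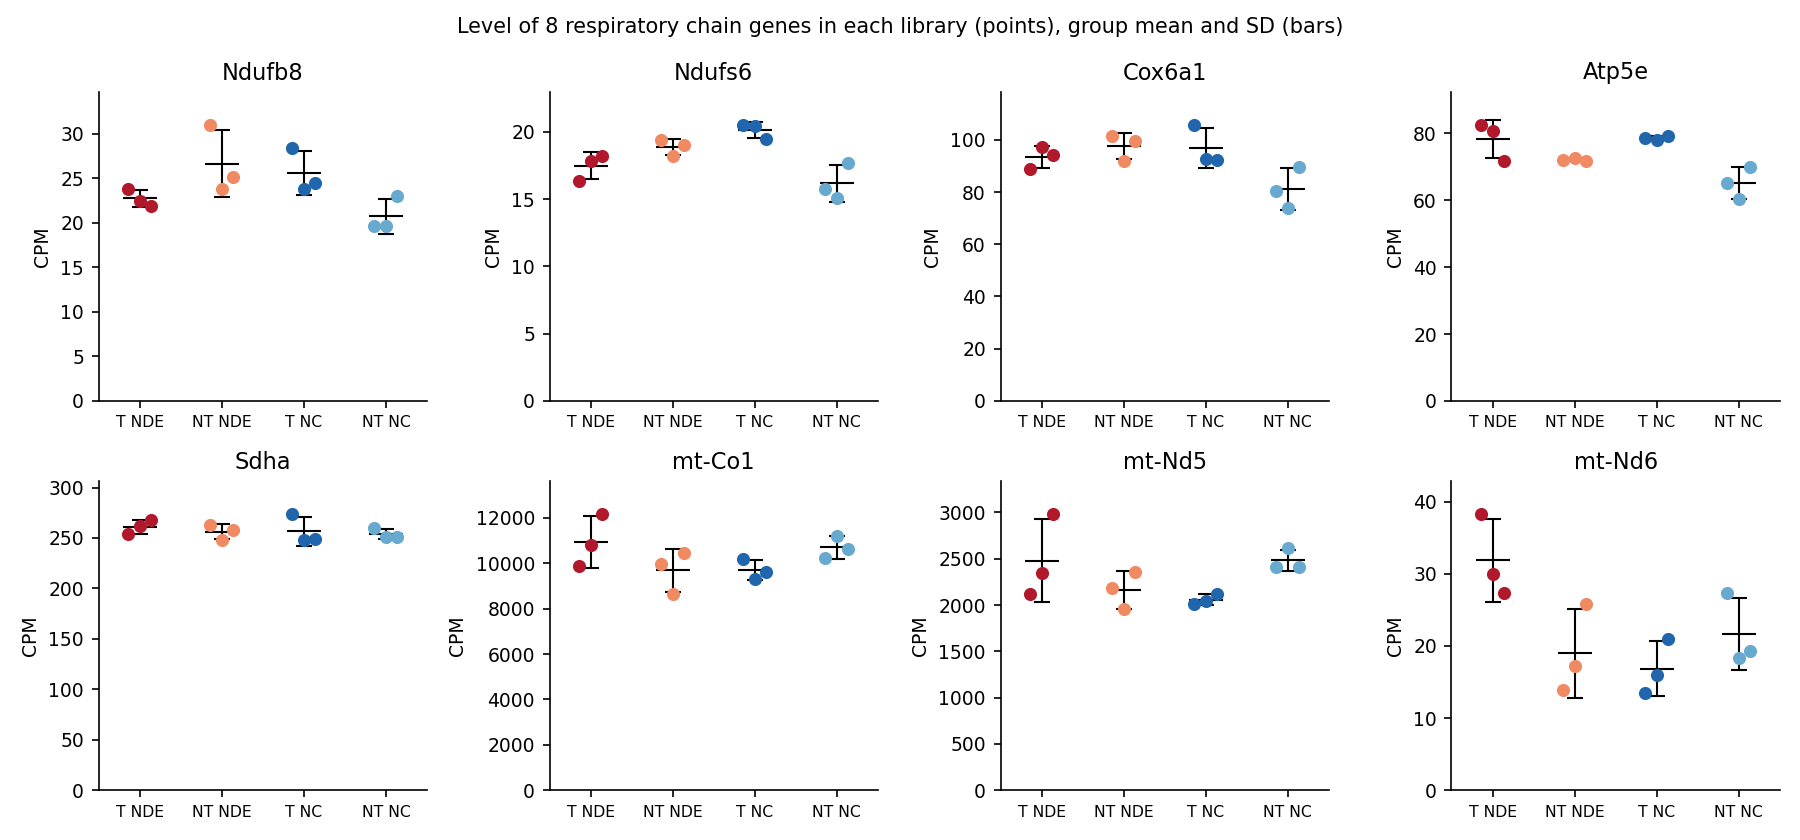
Level in CPM of 8 respiratory chain genes in each library (points) with the group mean and SD (bars), n = 3 per group. Ndufb8 and Ndufs6 have their lowest mean in NT NC, Sdha is level across groups, and mt-Nd6 is highest in T NDE.

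Where the nerves were inhibited in both groups, a tumour went with little difference in nuclear genes. In T NDE against NT NDE, 41 of 84 nuclear genes were positive (median -0.00; 50.3% of all genes were positive), and 11 of 12 mitochondrial genes were (median 0.18). The mitochondrial median was 0.12 without NT NDE replicate 2, 0.12 without T NDE replicate 3 and 0.13 without the 3 salivary libraries. Macrophage markers summed to 422 to 651 CPM in T NDE against 668 to 709.7 CPM in NT NDE, and stromal markers to 230 to 331 CPM against 334 to 352 CPM. These sums did not overlap, but with the TMM factor T NDE replicate 3 lay within the NT NDE range for both. By single genes, Siglec1 (158, 189 and 258 CPM against 294, 284 and 306 CPM) and Cxcl13 (168, 239 and 242 CPM against 295, 277 and 265 CPM) did not overlap. Pdpn was also lower without overlap, and the other genes of both lists overlapped. The part of these markers in the respiratory values was not tested. edgeR called 0 members (background 0.00578%), and all adjusted p values of members were 1.00 after rounding. DESeq2 also called 0 (background 0.0927%). Groups did not overlap for 4 nuclear genes that were higher (background 4.1%) and 4 that were lower (4.33%), and for 2 mitochondrial genes that were higher. With an unadjusted p under 0.05 there was 1 nuclear gene higher (background 1.66%) and 1 lower (2.05%), and 2 mitochondrial genes were higher. The mitochondrial count was 0 without NT NDE replicate 1, 1 without NT NDE replicate 2 or T NDE replicate 3, and 4 without NT NDE replicate 3. The higher nuclear gene was Cox7a2, a small subunit of complex IV, with 34.5, 34.4 and 36.1 CPM in T NDE against 27.6, 30.1 and 31.0 CPM in NT NDE (0.24, SE 0.08), and the lower was Ndufa13, with 44.4, 42.7 and 38.4 CPM against 51.0, 47.5 and 45.5 CPM (-0.20, SE 0.08; -0.13 without the 3 salivary libraries). mt-Nd6 had 38.2, 30.0 and 27.3 CPM against 13.9, 17.3 and 25.9 CPM (0.74, SE 0.25).

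The difference between the nerve effects with and without a tumour was tested as an interaction, the T NDE minus T NC value less the NT NDE minus NT NC value. Nuclear genes were negative in 73 of 84 cases, with a median of -0.14 (all genes 0.01), and mitochondrial genes positive in 11 of 12, with a median of 0.34. edgeR called 0 members (background 0.0%, smallest adjusted p = 0.622), and DESeq2 0 (0.249%). At an unadjusted p under 0.05, 21 nuclear genes were lower (background 3.95%) and 1 was higher (3.16%), and 6 mitochondrial genes were higher. Among well-covered genes the values were -0.53 for Ndufb8 (SE 0.16), -0.43 for Ndufs6 (SE 0.13) and 0.47 for mt-Nd5 (SE 0.15), with edgeR adjusted p values of 0.622, 0.622 and 0.624. mt-Nd6 was at 1.11 (SE 0.36). Without the 3 salivary libraries the counts were 12 nuclear genes and 1 mitochondrial gene, mt-Nd5 was at 0.27 and the mitochondrial median was 0.22. The mitochondrial count was 3 without T NDE replicate 3 or NT NDE replicate 2. The nuclear count was 12 without NT NC replicate 2.

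In sums, which give weight to abundant genes, the same opposition was seen without overlap only in T NC against NT NC. The 99 nuclear genes summed to 5901, 6112 and 6016 CPM in T NDE, 6105, 5847 and 6081 CPM in NT NDE, 6593, 5921 and 6006 CPM in T NC, and 5633, 5491 and 5919 CPM in NT NC. The T NC libraries lay just above those of NT NC, with 5921 against 5919 CPM at the nearest pair. The 13 mitochondrial genes summed to 19123, 20623 and 24228 CPM in T NDE, 19471, 16719 and 20471 CPM in NT NDE, 19412, 17922 and 18599 CPM in T NC, and 19756, 21854 and 20277 CPM in NT NC. All T NC libraries lay below all NT NC libraries, and the spread was widest in T NDE. Both sums overlapped in T NDE against T NC, in NT NDE against NT NC and in T NDE against NT NDE. The mean nuclear sums of T NDE and NT NDE were 6009 and 6011 CPM.

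The log2 ratio of summed nuclear to summed mitochondrial counts does not depend on how libraries are scaled. It was -1.70, -1.75 and -2.01 in T NDE, -1.67, -1.52 and -1.75 in NT NDE, -1.56, -1.60 and -1.63 in T NC, and -1.81, -1.99 and -1.78 in NT NC. The T NC ratios were thus above all those of T NDE and NT NC, and those of NT NDE above all those of NT NC. Group means were -1.82 ± 0.17 in T NDE, -1.65 ± 0.12 in NT NDE, -1.60 ± 0.04 in T NC and -1.86 ± 0.12 in NT NC (SD, n = 3 each). The difference was 0.26 for T NC minus NT NC, 0.21 for NT NDE minus NT NC, -0.22 for T NDE minus T NC and -0.17 for T NDE minus NT NDE, with pooled SDs of 0.09, 0.12, 0.12 and 0.15. As a score over chosen members it was given no test.

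Single libraries weighed on these differences. NT NDE minus NT NC was 0.15 without NT NC replicate 2 or without NT NDE replicate 2, and T NC minus NT NC was 0.20 without NT NC replicate 2. Without T NDE replicate 3, T NDE minus T NC was -0.13 and T NDE minus NT NDE -0.08, and the second was -0.11 without NT NDE replicate 2. Without the 3 salivary libraries, T NC minus NT NC was 0.21 and NT NDE minus NT NC 0.16. The salivary libraries T NDE replicate 3 (39299 CPM of salivary markers) and NT NC replicate 2 (1448 CPM) had the lowest ratios of all 12 libraries, -2.01 and -1.99. NT NC replicate 3, with 27963 CPM of salivary markers, and NT NC replicate 1, with 17.9 CPM, had ratios of -1.78 and -1.81. The part of salivary, erythroid and adipocyte transcripts in these values was not tested further.

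The nuclear sums were also formed by complex. Complex I summed to 1437 ± 25.5 CPM in T NDE, 1442 ± 34.4 in NT NDE, 1469 ± 53.1 in T NC and 1353 ± 41.3 in NT NC (SD, n = 3 each). Complex IV summed to 906 ± 11.7, 907 ± 36.3, 931 ± 62.0 and 816.5 ± 42.5 CPM in the same groups, and complex V to 2393 ± 84.1, 2389.7 ± 64.8, 2448 ± 165 and 2258 ± 101 CPM. In all 3 complexes NT NC had the lowest mean and T NC the highest. Complex II, with no mitochondrial gene, summed to 459 ± 14.6 CPM in T NDE, 451 ± 14.9 in NT NDE, 464 ± 31.6 in T NC and 449 ± 8.49 in NT NC, means that differ by less than the SD within T NC. The mitochondrial genes of complex I summed to 7051 ± 1077 CPM in T NDE, 6197 ± 685 in NT NDE, 6040.2 ± 152 in T NC and 6874 ± 434 in NT NC.

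Other well-covered mitochondrial genes also had their highest value in T NDE replicate 3. mt-Cytb, the catalytic core of complex III, had 2965, 3143 and 3760.0 CPM in T NDE, 3166, 2587 and 3178 CPM in NT NDE, 3038, 2733 and 2851 CPM in T NC, and 2886, 3227 and 2962 CPM in NT NC. mt-Nd1, a membrane core subunit of complex I, had 1968, 2022 and 2517 CPM in T NDE, 2010.2, 1647 and 2098 CPM in NT NDE, 2046, 1831 and 1916 CPM in T NC, and 1959.9, 2283 and 2028 CPM in NT NC. In both genes T NDE replicate 3 was the highest of the 12 libraries and NT NDE replicate 2 the lowest, and the groups overlapped. Among the genes with copies, mt-Co3 had 9.16, 18.4 and 16.8 CPM in T NDE, 14.2, 7.94 and 9.67 CPM in NT NDE, 18.5, 8.82 and 7.76 CPM in T NC, and 10.7, 12.5 and 9.95 CPM in NT NC, a spread of over a factor of 2 within 2 of the groups. mt-Nd3 was at 0.606 to 1.96 CPM and mt-Nd4l at 0.193 to 0.808 CPM over the 12 libraries, too few counts to order the groups.

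**Figure D4:**
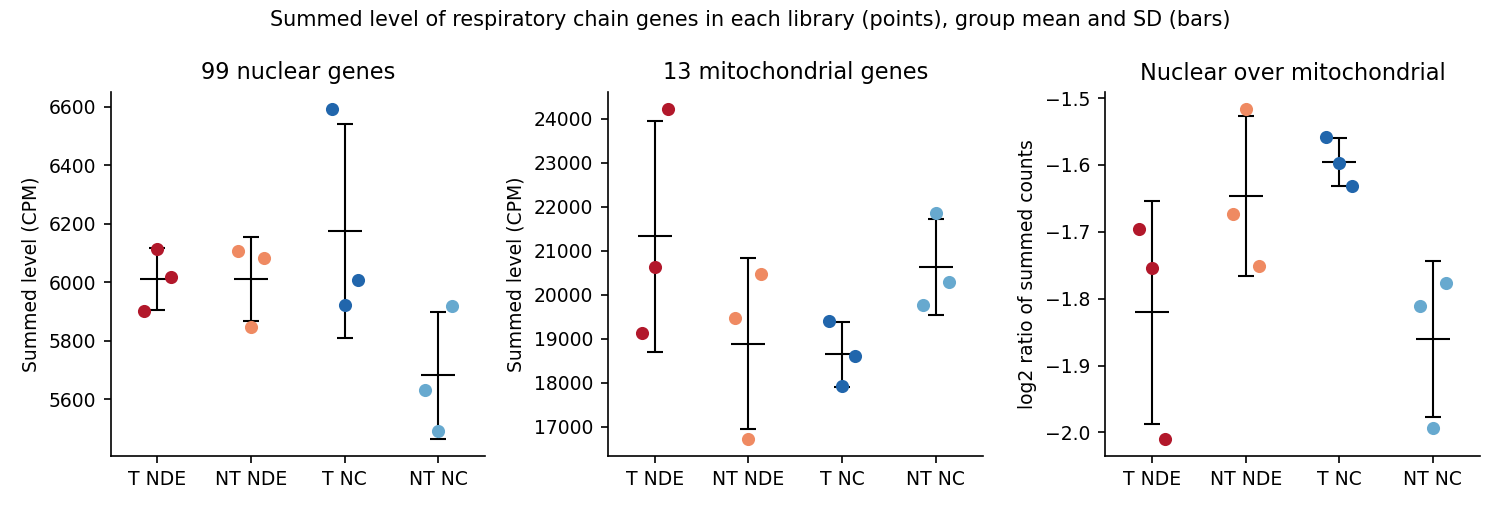
Summed level of the 99 nuclear genes (left) and 13 mitochondrial genes (middle) in CPM, and the log2 ratio of summed counts (right), per library (points), with group mean and SD (bars), n = 3 per group; axes do not start at 0. The T NC ratios, -1.63 to -1.56, lie above all T NDE and NT NC ratios.

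Genes outside the chain were set beside these values. The 81 tested cytosolic ribosomal protein genes, which make no part of mitochondria, had medians of 0.16 in T NC against NT NC, 0.09 in NT NDE against NT NC, -0.07 in T NDE against T NC, 0.01 in T NDE against NT NDE and -0.15 in the interaction. These lie within 0.03 of the nuclear respiratory medians of 0.15, 0.11, -0.05, -0.00 and -0.14. Of the 84 nuclear members, 57 belong to the shortest of 4 equal bins of all tested genes by exon length (up to 2.10 kb). In T NC against NT NC the median of all genes ran from 0.06 in the shortest bin to -0.05 in the longest, and that of the nuclear members from 0.19 (57 genes) to 0.09 (3 genes). In NT NDE against NT NC the medians of all genes were 0.03 and -0.02 in the shortest and longest bins, and in T NDE against T NC they were -0.03 and 0.03. Exon length joins all annotated exons, so Atp5l, with 6443 bases, is in the longest bin, though its longest coding transcript has 544. The part of transcript length in the nuclear values was not tested.

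**Figure D5:**
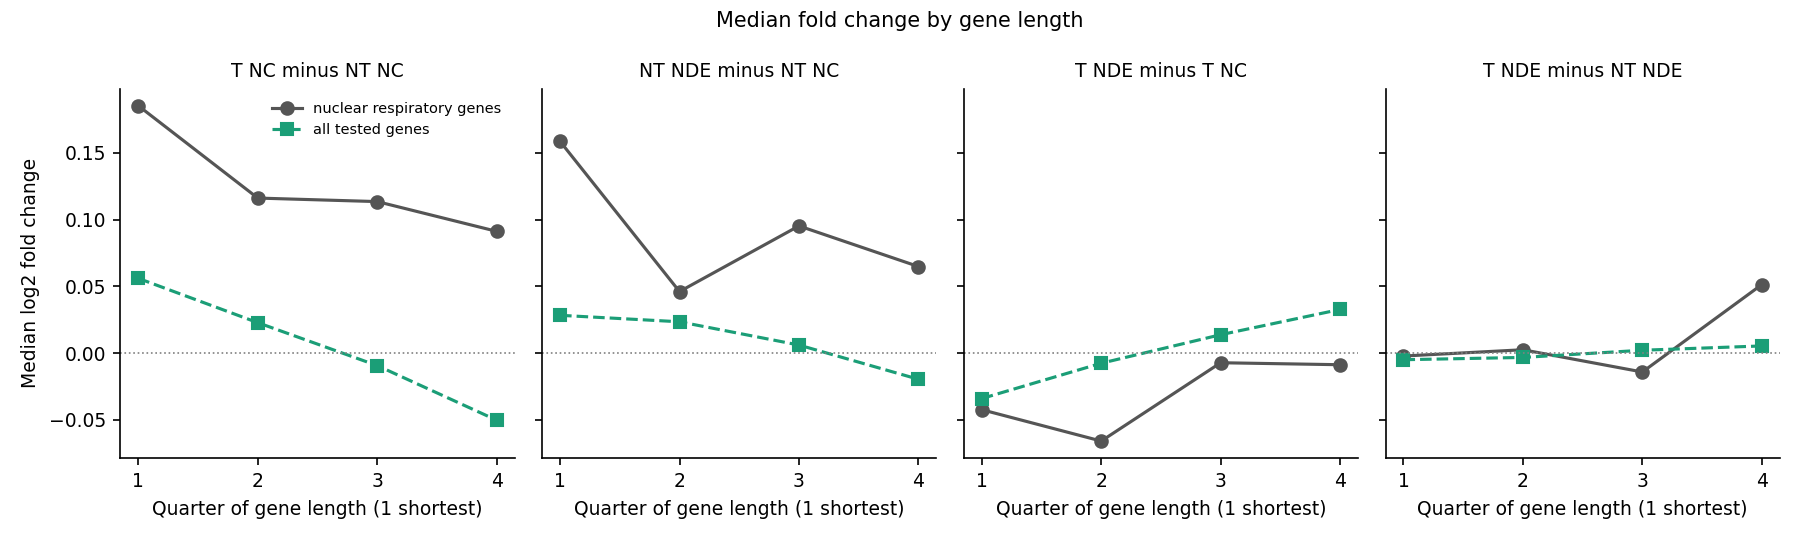
Median log2 fold change by bin of exon length for the tested nuclear respiratory genes (circles; 57, 16, 8 and 3 genes from shortest to longest) and for all tested genes (squares), in 4 comparisons. With T NC over NT NC the nuclear medians run from 0.19 to 0.09 and those of all genes from 0.06 to -0.05.

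Other lists of mitochondrial and energy metabolism had smaller medians than the nuclear respiratory genes in T NC against NT NC. Of 14 assembly factors of complex I, 10 were positive in T NC against NT NC (median 0.06), and of 29 assembly factors of complexes III to V, 18 (median 0.04). Of 25 genes of mitochondrial transcription and RNA processing 12 were positive (median -0.03), of 13 genes of the tricarboxylic acid cycle 9 (median 0.03), of 14 genes of glycolysis 12 (median 0.10) and of 10 genes of uncoupling and mitochondrial stress 6 (median 0.03). In NT NDE against NT NC the 6 medians were 0.07, 0.02, -0.06, 0.05, 0.09 and 0.06 in the same order, and in T NDE against T NC -0.00, -0.03, -0.01, 0.01, -0.02 and 0.07. edgeR called 0 genes of these lists in any of the 5 contrasts.

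At an unadjusted p under 0.05 in T NC against NT NC, 1 assembly factor gene was higher and 2 lower, 1 gene of the RNA processing list was higher and 2 lower, and 1 stress gene was higher. Over all genes 4.58% were higher and 3.23% lower at that p, so 1 gene in lists of 10 to 29 is near the background. The smallest p was that of Uqcc2, an assembly factor of complex III, whose mean was 16.8 CPM over T NC libraries and 11.9 CPM over NT NC libraries (log2 fold change 0.50, SE 0.11, edgeR adjusted p = 0.348). Slirp, which with Lrpprc stabilises mitochondrial mRNA, had means of 13.7 CPM over T NC libraries and 10.7 CPM over NT NC libraries (0.36, SE 0.13, edgeR adjusted p = 0.535). These genes, and Hspe1, Tfam and Ppargc1a, were picked after their values were seen. The mitochondrial chaperonin cofactor Hspe1 was the stress gene, with means of 97.7 CPM over T NC libraries and 84.0 CPM over NT NC libraries (0.22, SE 0.08). Averaged over the other factor, neither T against NT nor NDE against NC gave a called member in edgeR (backgrounds 0.0% and 0.0983%). The nuclear medians were 0.07 and 0.03 and the mitochondrial medians 0.03 and 0.03, so that both genomes had positive medians in these averages.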

How the data were processed

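Lymph node RNA was extracted with Trizol and sequenced as Illumina mRNA libraries, per the labels' protocols. The authors deposited whole-number read counts per gene. HISAT2 2.0 and the mm10 build are named per the submitters' processing notes, and the counting tool, its treatment of reads with several matches and its strand setting were not given in the sources used here. Gene names, positions and exon lengths came from GENCODE M21, and promoter windows from RefSeq (GRCm38.p6). Nuclear copies were found with BLAST 2.17.0 and by exact words of 50 bases.

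All 17301 of 55487 genes that passed filterByExpr (minimum count 10, minimum total 15) were fitted together over 12 libraries with edgeR 4.0.16 (TMM, robust quasi-likelihood, group means, R 4.3.3), and p-values were adjusted over all of them by Benjamini-Hochberg at 0.05. CPM are counts per library total times its TMM factor, except in marker sums, which use the plain library total. DESeq2 1.42.0, limma 3.58.1 (voom), other scalings and filters, a replicate block and left-out libraries were alternatives. The fits were also run on simulated data without admixed salivary tissue and with larger changes than most seen here. The outcome is not given and does not bear on the small shifts above. With 3 against 3 libraries an exact permutation test of a single value cannot go below 0.1. Replicates are described as independent, without saying which animals each came from.

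The genes named are the 13 mitochondrial members, the 3 highest, 3 lowest and 3 smallest p in each of the 5 contrasts, the 5 nuclear genes highest per length, the Sdh genes and the tissue-restricted isoforms. Other genes were named after their values were seen. The members and lists were chosen with earlier results of these data known. Planned permutation tests over 6 libraries a side were not run.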

Additional observations from a re-analysis of the deposited data

Results flagged for a closer look

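In 4 measures the libraries did not overlap in either of 2 like comparisons, and the direction was opposite in them. The share of all genes that meet this rule is not given, so the flag does not set these genes apart. Within single comparisons, 4.1% to 9.71% of all genes did not overlap in a given direction. The log2 ratio of nuclear to mitochondrial counts differed by -0.22 in T NDE minus T NC and by 0.21 in NT NDE minus NT NC, a difference between comparisons that was not tested.

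Ndufb8 differed by -2.85 CPM in T NDE minus T NC and by 5.91 CPM in NT NDE minus NT NC, and by -3.92 CPM in T NDE minus NT NDE and 4.84 CPM in T NC minus NT NC. Ndufs6 differed by -2.65 and 2.72 CPM between NDE and NC with and without a tumour, and by -1.40 and 3.97 CPM between T and NT with nerves inhibited and intact. For both complex I genes the interaction in edgeR's quasi-likelihood test had an adjusted p of 0.622 (log2 values -0.53 and -0.43).

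mt-Atp6, which shares 99.5% of its 50-base words with its nuclear copy, differed by 0.513 CPM in T NDE minus T NC and -2.40 CPM in NT NDE minus NT NC, and by 0.686 CPM in T NDE minus NT NDE and -2.23 CPM in T NC minus NT NC. Its interaction was 0.67 (edgeR adjusted p = 0.642), and 0.27 without the 3 salivary libraries.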

How the results depend on the processing

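In edgeR and limma-voom, 0 members were called in each of the 5 contrasts under every scaling, filter and left-out library (range 0 to 0). DESeq2 called 1 member in T NDE minus T NC (mt-Nd6) and 1 in NT NDE minus NT NC (Ndufb1-ps). Of the log2 values of named genes, 1275 kept their side and sign and 7 reversed. With all 3 salivary libraries left out, Atp5s was 0.041 in T NC minus NT NC and 0.047 in NT NDE minus NT NC, and Ndufb2 was 0.16 in T NC minus NT NC and -0.077 in the interaction. Leaving out single libraries gave Ndufb2 values of -0.17 to 0.082 in T NC minus NT NC, with 0.025 when T NC replicate 2 was left out, and of -0.033 to 0.22 in the interaction. The interaction of the log2 ratio was -0.44, and -0.29 without the salivary libraries; the cause was not tested. Leaving out single libraries gave ratio differences of 0.20 to 0.31 (T NC minus NT NC), -0.29 to -0.13 (T NDE minus T NC), 0.15 to 0.27 (NT NDE minus NT NC), -0.24 to -0.08 (T NDE minus NT NDE) and -0.50 to -0.34 (interaction). With equal weight per gene the differences were 0.31, -0.27, 0.26, -0.22 and -0.53 in that order.

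With the replicate number as a block, 0 members were called in each contrast and the ratio in T NC minus NT NC stayed at 0.26. Of 18 pairs with the same number, 2 had a correlation above 0.1 (range -0.14 to 0.56) and 6 were matched best by their own number. The highest was that of T NDE replicate 3 with NT NC replicate 3, the libraries with the most salivary markers. With 3 candidates for each match, this check cannot tell whether libraries of the same number share animals or a batch.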
